A study of Mus musculus with 22 samples.

Results

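The PRDM family was followed in forebrain RNA of *Prdm16* KO and control mouse embryos at E13.5. The 9 members described here (*Prdm16*, *Mecom*, *Prdm2*, *Prdm4*, *Prdm8*, *Prdm10*, *Prdm12*, *Prdm13* and *Prdm15*) were taken by gene symbol from a count table of 24421 genes, and all 9 had an entry. Another 7 genes of the PR-domain family in the table are given more briefly for comparison. The KO group consisted of 3 embryos labelled as homozygous mutants, and the control group of 3 littermates, with 1 library per embryo. The strains that the study calls KO carry a gene trap in *Prdm16*, described there as a null allele, and the Materials and Methods state that they were kept by crosses to FVB/NJ. Which of the trap strains gave these embryos is not stated. The labels allow the controls to be heterozygous or wild type, and the genotype of each control is not given, so a control may carry 1 trapped allele. Labels and Methods also differ on tissue (forebrain or dissected cortex) and on RNA (polyA RNA or a total RNA kit). Libraries are named by the animal number in the count table, with F727, F728 and F731 in the KO group and F722, F724 and F725 in the control group.

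PRDM proteins are zinc finger factors that carry a PR domain, a relative of the SET domain of histone methyltransferases. Most of them bind DNA through their zinc fingers and recruit chromatin enzymes or corepressors, and several set cell identity in the nervous system. PRDM16 is known from brown fat, where it directs precursor cells, and from neural progenitors and blood stem cells. *Mecom*, also called *Prdm3*, encodes its closest relative, which is made in a long form with the PR domain and in a short form, EVI1, that lacks it. The comparison asked which family members are expressed at all in this tissue and which follow the loss of *Prdm16*.

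The libraries held 16638433 to 41140614 counts in the KO group and 28569526 to 43066648 counts in the control group. KO F731 stood apart: it was the shallowest library, it had counts for 22991 genes against 17795 to 18320 in the other 5, and 7.39% of its counts came from the ribosomal precursor *Rn45s*, against 0.224% to 2.43% elsewhere. Its summed level of 8 blood and microglia markers was 1771 CPM (counts scaled to a common library total), whereas the other 5 libraries had 424 to 537 CPM. Fold changes of the members are therefore also given without KO F731. Markers of cells of the developing forebrain were present. The 8 radial glia markers summed to 3202 to 3498 CPM in KO and 2916 to 3066 CPM in control libraries. The 6 markers of excitatory neurons and their progenitors summed to 1232 to 1380 CPM in KO and 1272 to 1750 CPM in control libraries. No other tissue was compared, so these sums cannot tell forebrain from cortex or from other neural tissue. These CPM values were scaled by the trimmed mean of M values (TMM), a correction for libraries of different composition. Differences were tested with edgeR across the 15027 genes that passed a filter on low counts, with adjustment of the *P*-values over that whole set. For 1 gene in 3 embryos against 3, exact permutation gives no *P*-value below 0.1, so the model fits carry the tests. The *P*-values set the difference between the groups against the spread between these embryos, which the fits estimate for each gene with help from the other genes.

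*Prdm16* and *Mecom* share a stretch of sequence at their starts. The RefSeq promoter table (GRCm38.p6), with windows of 250 bases before to 50 bases after each start, holds 8 of the 9 members in 12 windows. *Prdm2* is not among them. Of the 62 pairs of windows from different members, the longest identical run was 24 bases, shared by *Prdm16* and the distal start of *Mecom*, from which the long form is made. The next longest run of any pair was 11 bases and the median was 8 bases. The 2 windows are shown because their genes had the largest fold changes of the family. Both lie on the minus strand and are written 5′ to 3′, with the shared run in capitals.
Prdm16, chr4:154636824-154637123, minus strand: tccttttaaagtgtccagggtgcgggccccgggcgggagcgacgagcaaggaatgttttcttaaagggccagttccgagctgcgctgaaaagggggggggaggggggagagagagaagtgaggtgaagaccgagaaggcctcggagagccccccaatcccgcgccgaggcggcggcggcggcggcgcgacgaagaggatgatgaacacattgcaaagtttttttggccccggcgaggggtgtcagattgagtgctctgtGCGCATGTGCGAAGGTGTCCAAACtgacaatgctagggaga
Mecom distal start, chr3:30509710-30510009, minus strand: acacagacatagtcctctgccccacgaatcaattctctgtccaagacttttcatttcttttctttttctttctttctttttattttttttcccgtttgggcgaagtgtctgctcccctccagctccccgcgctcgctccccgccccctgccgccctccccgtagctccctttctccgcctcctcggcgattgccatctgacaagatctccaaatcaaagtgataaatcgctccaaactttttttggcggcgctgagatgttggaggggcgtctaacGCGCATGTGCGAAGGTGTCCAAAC
The run covered bases 10 to 33 of the *Prdm16* transcript (chr4:154636841-154636864) and bases 27 to 50 of the *Mecom* transcript (chr3:30509710-30509733), counted from each start as base 1. Among 32817 promoter windows of the same length, these 2 alone held it on either strand. The genome outside these windows was not searched for it. The *Mecom* window ends with the run, and in the genome the identity went on for another 12 bases, to 36 bases in all. GENCODE places it in untranslated exon sequence of both genes, outside the coding sequence. The *Prdm16* window held 24 CpG dinucleotides and the distal *Mecom* window 19, against a median of 7 over all windows. The second *Mecom* window, at the internal start of the short form (chr3:30013155-30013454), had 9 CpG dinucleotides and did not hold the run.

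*Prdm16*, the targeted gene, was far lower in the KO libraries (chr4:154316125-154636873, minus strand). It had 349, 279 and 99 counts in KO libraries F727, F728 and F731, and 2003, 2015 and 1114 counts in control libraries F722, F724 and F725. After scaling this was 9.60, 6.58 and 6.82 CPM in the KO libraries, against 58.2, 45.0 and 37.9 CPM in the control libraries. The highest KO library thus lay far below the lowest control library, as the labels require. The mean was 7.66 ± 1.68 CPM in KO and 47.0 ± 10.3 CPM in control libraries (SD, n = 3 each), or 16.3% of the control level. The log2 fold change was -2.61 with a standard error of 0.22 (approximate 95% interval -3.04 to -2.18). *Prdm16* had the smallest *P*-value of all 15027 genes in edgeR (3.42e-06), and after adjustment it stood just above the threshold of 0.05 (0.0514). DESeq2, the tool named in the Materials and Methods, called it with an adjusted *P*-value of 7.09e-24. Without KO F731 the log2 fold change was -2.54, with adjusted *P*-values of 0.179 in edgeR and 1.65e-28 in DESeq2.

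Counts of *Prdm16* remained in every KO library. A count per gene does not separate exons before the trap from exons after it, so it cannot be told which part of the transcript these counts came from. On the opposite strand *Prdm16* shares exon sequence with *B230104I21Rik*, which has no entry of its own in the table, and the strand setting of the counting is not given in the sources used here. In bulk tissue fewer cells of a type and less RNA per cell cannot be told apart. Markers of radial glia, the progenitors in which PRDM16 is known to be made, did not move together. The sum of the 8 markers was 3202, 3498 and 3418 CPM in the KO libraries, against 3066, 2958 and 2916 CPM in the control libraries, and most of it came from *Vim* (mean 1398 CPM in KO and 1226 CPM in control libraries), *Fabp7* (743 and 596 CPM) and *Nes* (621 and 535 CPM). The fold changes of *Pax6* (-0.15 on the log2 scale), *Slc1a3* (-0.11) and *Sox2* (-0.03) lay below 0, and KO F731 had the lowest level of *Pax6* (121 CPM) and *Sox2* (179 CPM) of all 6 libraries. Of the 8 markers, 1 had an edgeR *P*-value under 0.05 (1.91% of all genes tested), namely *Fabp7* (log2 fold change 0.32, *P*-value 0.0284, adjusted *P* = 0.876). Their part in the level of *Prdm16* was not tested.

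*Mecom* was higher in the KO libraries (chr3:29951296-30548008, minus strand). It had 458, 723 and 128 counts in the KO libraries, against 58, 178 and 95 counts in the control libraries. This was 12.6, 17.0 and 8.81 CPM in KO F727, F728 and F731, against 1.68, 3.97 and 3.23 CPM in control F722, F724 and F725. Every KO library was above every control library, and the lowest of them was KO F731. The mean was 12.8 ± 4.12 CPM in KO and 2.96 ± 1.17 CPM in control libraries (SD, n = 3 each). The log2 fold change was 2.12 with a standard error of 0.35 (95% interval 1.43 to 2.80), which is a fold of 4.34. *Mecom* ranked 9 of all genes tested by *P*-value in edgeR (0.000367), and the adjusted *P*-value was 0.597. In DESeq2 it ranked 3 and was called, with a log2 fold change of 2.11 and an adjusted *P*-value of 0.000149. Without KO F731 the log2 fold change was 2.31, with adjusted *P*-values of 0.235 in edgeR and 1.27e-09 in DESeq2.

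A gene count cannot say which of the *Mecom* starts was in use, nor how much came from the antisense gene *Mecomos*, whose exons overlap those of *Mecom*. MECOM is known from blood stem cells, leukaemia and endothelium. The 8 endothelial markers summed to 93.4, 99.2 and 155 CPM in the KO libraries, against 85.6, 111 and 109 CPM in the control libraries, with overlap between the groups. The higher sum of KO F731 came mostly from *Cldn5*, at 65.2 CPM there against 19.6 to 23.2 CPM in the other libraries. KO F731 was also the highest library for *Esam* (21.8 CPM), *Tek* (8.95 CPM), *Flt1* (5.78 CPM) and *Emcn* (4.75 CPM). *Cdh5* (13.6 CPM), *Kdr* (18.9 CPM) and *Pecam1* (16.1 CPM) in KO F731 lay within the range of the others. The blood and microglia sum of KO F727 and F728 lay at 424 and 518 CPM, against 511 to 537 CPM in the control libraries. Choroid plexus markers summed to 21.5, 36.8 and 39.3 CPM in KO libraries, against 21.0, 20.9 and 28.7 CPM in control libraries, and *Ttr*, the main secretory product of that epithelium, had a log2 fold change of 1.90 with a standard error of 0.89 and an edgeR *P*-value of 0.0679 (adjusted *P* = 0.876). Without KO F731, which had 12.9 CPM of *Ttr* against 2.20 and 5.56 CPM in the other KO libraries, it was 1.19 (edgeR *P*-value 0.184). Control F724 had 0.268 CPM of *Ttr*, against 1.25 and 4.01 CPM in the other control libraries. It was also low in *Lmx1a* (0.268 CPM, against 4.65 and 5.61 CPM) and *Folr1* (0.112 CPM, against 1.02 and 1.39 CPM). For *Aqp1* and *Otx2* it was the highest control library. Of the 6 choroid plexus markers tested, 5 had a log2 fold change above 0, as did 48.7% of all genes tested. The other was *Otx2* (-0.07), the marker with the highest mean (14.2 CPM in KO and 15.0 CPM in control libraries). The paper itself reports that the prospective choroid plexus is strongly reduced in KO brains. The part of endothelial, blood or choroid plexus cells in the level of *Mecom* was not tested.

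**Figure D1:**
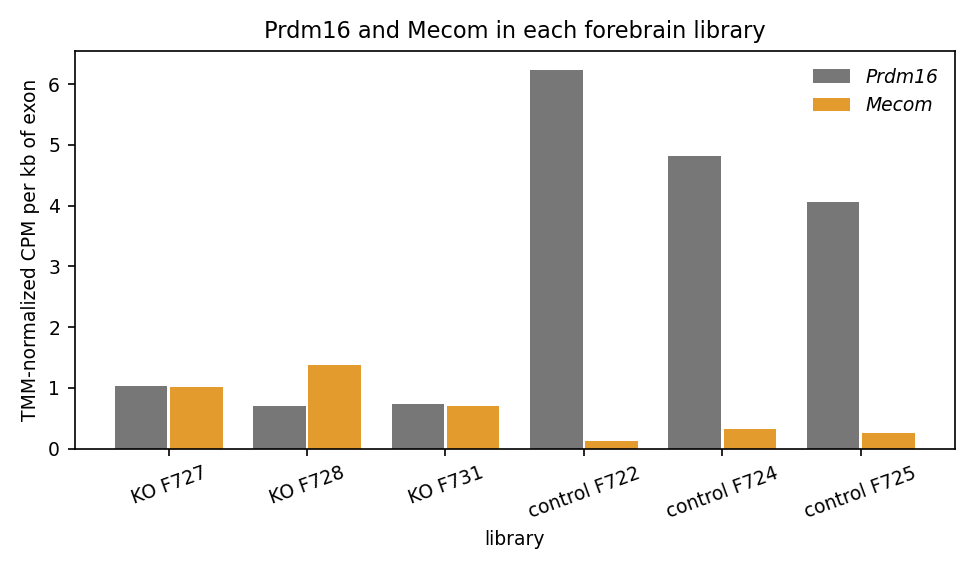
Level of *Prdm16* (grey) and *Mecom* (orange) in each library, as TMM-scaled CPM per kilobase of exon (vertical axis, linear from 0), with the 3 KO libraries to the left of the 3 control libraries. *Mecom* was at 0.709 to 1.37 in KO and 0.136 to 0.320 in control libraries, whereas *Prdm16* was at 0.705 to 1.03 in KO and 4.06 to 6.24 in control libraries.

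To compare the 2 genes with each other, levels were divided by the exonic length annotated for each (CPM per kilobase). *Mecom* made up 49.6%, 66.0% and 49.2% of the summed *Prdm16* and *Mecom* level in KO F727, F728 and F731, against 2.13%, 6.21% and 6.01% in control F722, F724 and F725. The sum of both genes was 2.04, 2.08 and 1.44 CPM per kilobase in the KO libraries, against 6.37, 5.14 and 4.32 CPM per kilobase in the control libraries. By this measure the sum of each KO library lay below that of every control library. The remaining *Prdm16* counts were divided by the full exonic length, although it cannot be told which part of the transcript they came from. The share and the sum thus compare counts per length, not intact transcripts. Within the KO group the counts of *Mecom* and the remaining counts of *Prdm16* were similar per length in F727 and F731, while *Mecom* was the higher of the pair in F728.

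*Prdm12* was the third member with a low *P*-value (chr2:31640037-31655795, plus strand). It encodes a factor required for pain-sensing neurons. Its level was 5.45, 9.76 and 5.85 CPM in the KO libraries, against 14.1, 16.0 and 11.1 CPM in the control libraries. No KO library reached the lowest control library, though KO F728 came near it. The mean was 7.02 ± 2.38 CPM in KO and 13.8 ± 2.47 CPM in control libraries (SD, n = 3 each), with a log2 fold change of -0.96 and a standard error of 0.25 (95% interval -1.45 to -0.46). The edgeR *P*-value was 0.00586 and the adjusted value 0.876, and DESeq2 did not call it (adjusted *P* = 0.454). It was called by DESeq2 only when KO F728 was left out, with an adjusted *P*-value of 0.00471. Without KO F731 its log2 fold change was -0.85, with an edgeR *P*-value of 0.0140 (adjusted *P* = 1.00).

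Beside *Prdm12*, markers of sensory ganglia, ventral telencephalon, and hypothalamus and diencephalon were examined. The sensory ganglion markers summed to 47.7, 55.7 and 50.1 CPM in KO libraries, against 40.8, 45.0 and 63.2 CPM in control libraries. Most of this sum came from *Isl1*, which ventral forebrain also expresses. The ventral telencephalon markers summed to 366, 511 and 354 CPM in KO libraries, against 384, 426 and 694 CPM in control libraries. The hypothalamus and diencephalon markers summed to 58.1, 52.8 and 59.4 CPM in KO libraries, against 49.5, 42.0 and 58.1 CPM in control libraries. In each of these lists the groups overlapped, and their part in the level of *Prdm12* was not tested. Exons of *Prdm12* overlap those of *Gm13425* on the opposite strand, which has no entry of its own in the table.

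*Prdm8*, which acts with BHLHE22 as a repressor in cortical neurons, was among the most abundant members (chr5:98167198-98188991, plus strand). It was at 60.2, 58.3 and 54.5 CPM in the KO libraries, against 69.9, 79.0 and 61.0 CPM in the control libraries. The KO libraries all lay below the control libraries, by a margin of less than 1 CPM between KO F727 and control F725. The log2 fold change was -0.28 with a standard error of 0.12 and an edgeR *P*-value of 0.0524 (adjusted *P* = 0.876), and -0.24 without KO F731. Markers of excitatory neurons and their progenitors summed to 1380, 1259 and 1232 CPM in the KO libraries, against 1544, 1750 and 1272 CPM in the control libraries. Control F724 was highest and control F725 lowest of the control group in both *Prdm8* and this sum, and the part of these cells in the level of *Prdm8* was not tested.

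**Figure D2:**
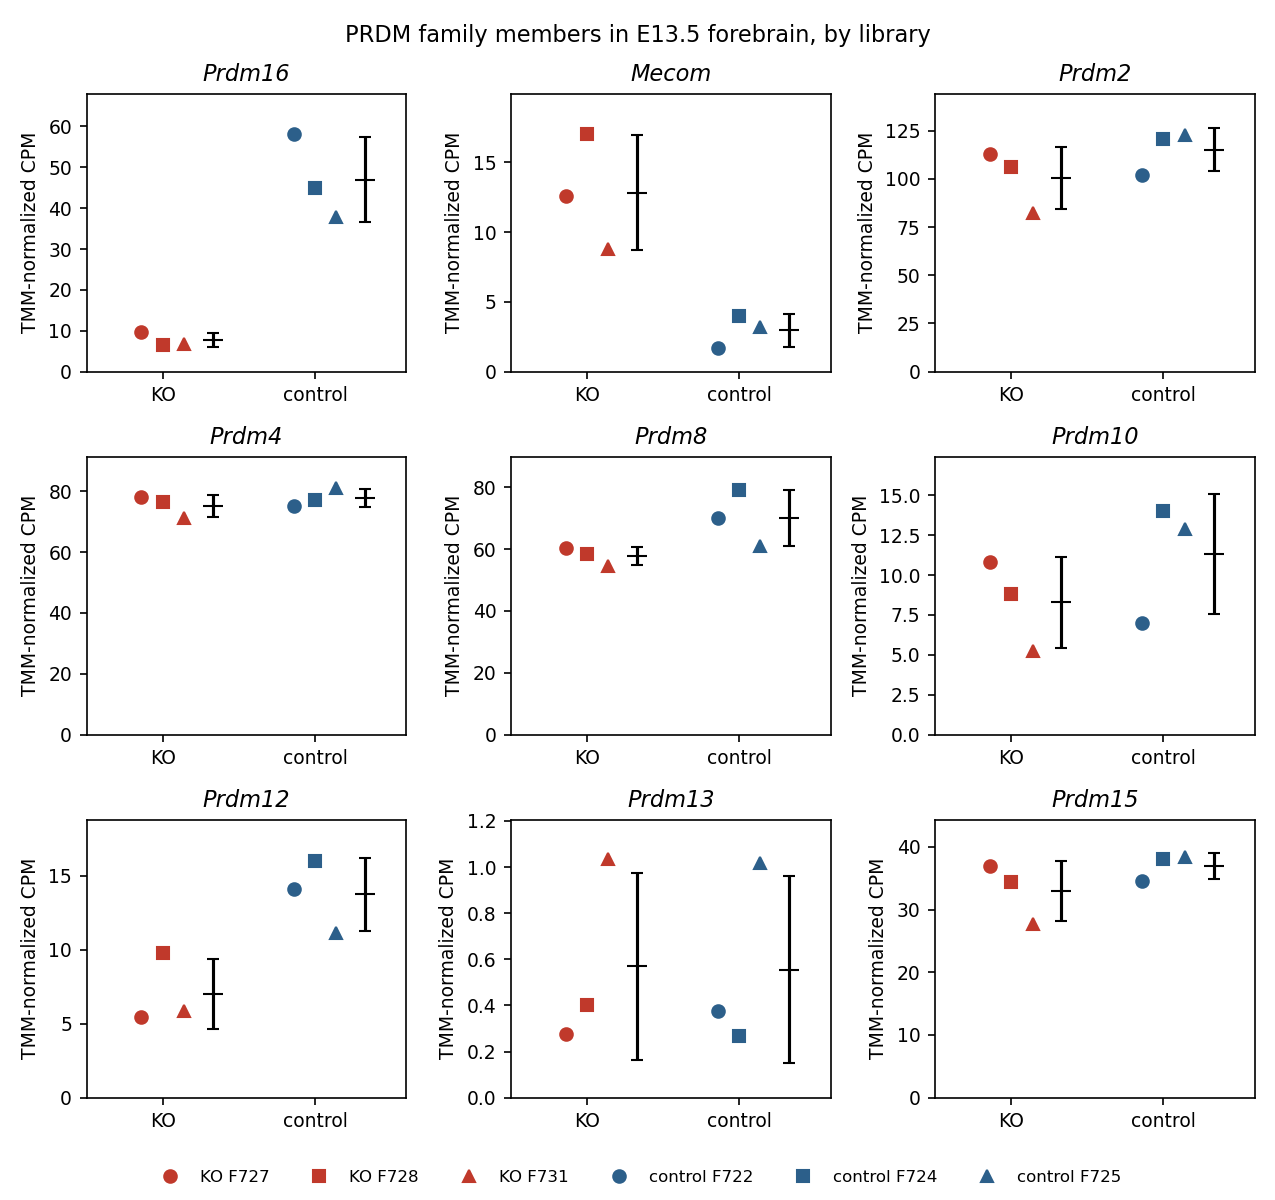
TMM-scaled CPM (vertical axes, linear from 0) of the 9 members, 1 panel per gene, with KO libraries in red on the left and control libraries in blue on the right. Marker shapes stand for libraries, and black bars give the mean and SD over 3 libraries. The groups did not overlap for *Prdm16*, *Mecom*, *Prdm12* and *Prdm8*, and KO F731 was the lowest library for *Prdm2*, *Prdm4*, *Prdm10* and *Prdm15*.

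In *Prdm2*, *Prdm4*, *Prdm10* and *Prdm15* the groups overlapped. *Prdm2* encodes RIZ, a partner of the retinoblastoma protein, and was at 113, 106 and 82.2 CPM in the KO libraries, against 102, 121 and 123 CPM in the control libraries. *Prdm4*, a partner of the neurotrophin receptor NGFR, was at 78.0, 76.4 and 71.1 CPM in the KO libraries, against 75.2, 77.0 and 81.1 CPM in the control libraries. It varied least of the 9 members, with a coefficient of variation of 4.78% in KO and 3.89% in control libraries, and its log2 fold change of -0.05 carried a 95% interval of -0.23 to 0.14. *Prdm15*, which maintains pluripotency in mouse embryonic stem cells through *Rspo1* and *Spry1*, was at 36.9, 34.5 and 27.7 CPM in the KO libraries, against 34.6, 38.0 and 38.3 CPM in the control libraries. *Prdm10*, an activator of *Flcn* and *Eif3b*, was at 10.8, 8.79 and 5.23 CPM in the KO libraries, against 7.00, 14.0 and 12.9 CPM in the control libraries, so that control F722 lay within the KO range.

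KO F731 was the lowest of the 6 libraries for each of these 4 genes. With all libraries the log2 fold changes were -0.20 for *Prdm2* (95% interval -0.48 to 0.08), -0.16 for *Prdm15* (-0.42 to 0.10) and -0.43 for *Prdm10* (-1.06 to 0.21), with edgeR *P*-values of 0.206, 0.261 and 0.226, and of 0.622 for *Prdm4* (adjusted *P* = 0.876 to 0.897). Without KO F731 they were nearer to 0, at -0.08 for *Prdm2*, -0.05 for *Prdm15*, -0.21 for *Prdm10* and -0.01 for *Prdm4*. For *Prdm2*, *Prdm4* and *Prdm15* these approximate intervals lay within 1 log2 unit of 0 in either direction. The interval of *Prdm10* did not.

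*Prdm13*, which directs inhibitory neuron fate in the dorsal spinal cord together with PTF1A, was barely present. It had 10, 17 and 15 counts in the KO libraries, against 13, 12 and 30 counts in the control libraries. KO F731, at 1.03 CPM, and control F725, at 1.02 CPM, were the high libraries of their groups, and the other 4 were at 0.268 to 0.401 CPM. The log2 fold change was -0.14 with a 95% interval of -1.47 to 1.19 and an edgeR *P*-value of 0.847 (adjusted *P* = 0.959), and -0.59 without KO F731. With all libraries, the interval did not exclude a difference of 1 log2 unit in either direction.

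All 9 members passed the filter on low counts, as did 61.5% of all genes in the table. Per kilobase of exon the family spanned a wide range in the control libraries. *Prdm4* (15.8 ± 0.615), *Prdm2* (15.5 ± 1.53) and *Prdm8* (14.4 ± 1.86 CPM per kilobase; SD, n = 3) came first and did not differ from each other beyond their spread. *Prdm12* (5.56 ± 1.00) and *Prdm16* (5.04 ± 1.11 CPM per kilobase) formed the next pair and overlapped with each other, followed without overlap by *Prdm15* (3.26 ± 0.182 CPM per kilobase). *Prdm10* was at 1.22 ± 0.407, *Mecom* at 0.238 ± 0.0939 and *Prdm13* at 0.130 ± 0.0948 CPM per kilobase. By the control mean, 7 of the 9 members were at 1 CPM per kilobase or more and the other 2 between 0.1 and 1, although *Prdm10* was at 0.756 in control F722, and *Prdm13* at 0.0882 and 0.0626 CPM per kilobase in control F722 and F724.

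**Figure D3:**
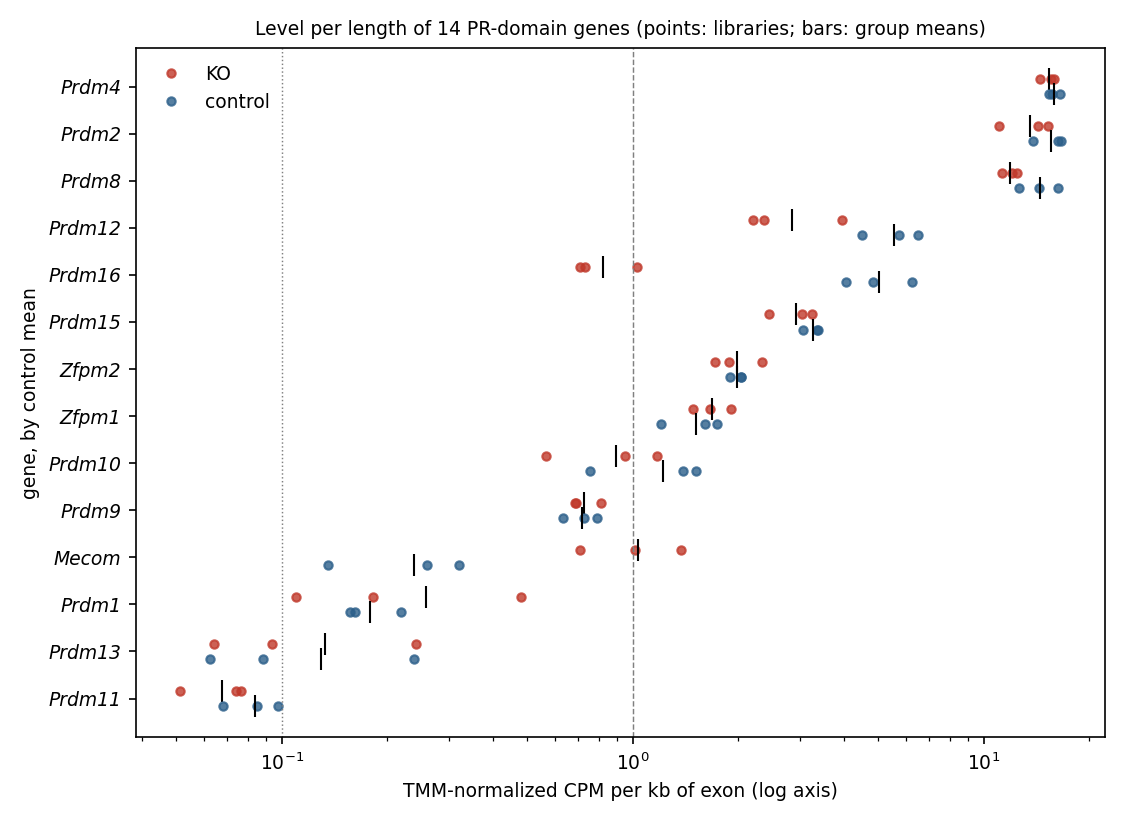
Level per length of the 14 PR-domain genes with enough counts, in TMM-scaled CPM per kilobase of exon (horizontal log axis), ordered by the control mean. Each row shows the KO libraries in red above the control libraries in blue, with black bars for the group means and vertical lines at 0.1 and 1. The KO and control points of *Prdm16* and *Mecom* lie apart on opposite sides, those of *Prdm12* and *Prdm8* lie apart less widely, and those of the other genes overlap.

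The order in the KO libraries was the same at the top, with *Prdm4* (15.3 ± 0.731), *Prdm2* (13.52 ± 2.17) and *Prdm8* (11.9 ± 0.598 CPM per kilobase). Of the 14 PR-domain genes with enough counts, *Prdm16* ranked 10 in KO and 5 in control libraries, and *Mecom* ranked 8 in KO and 11 in control libraries. *Mecom* was at 1.03 ± 0.331 CPM per kilobase in the KO libraries, a level that overlapped with those of *Prdm10* (0.895 ± 0.306) and of the remaining *Prdm16* (0.822 ± 0.180) there. *Prdm12*, at 2.84 ± 0.963 CPM per kilobase in KO libraries, ranked 5 in KO and 4 in control libraries. These lengths join all annotated exons of a gene, so they overstate the length of a gene that uses few of them.

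Over the family, edgeR called 0 of the 9 members at an adjusted *P*-value under 0.05, as it did 0 of all 15027 genes (0%). At an unadjusted *P*-value under 0.05 edgeR had 3 members, namely *Prdm16* and *Prdm12* lower and *Mecom* higher, where 1.91% of all genes passed (0.699% lower and 1.21% higher). DESeq2 called 2 of the 9, *Prdm16* lower and *Mecom* higher, out of 18 genes called among 15651 (0.115%). *Prdm16* was 1 of only 2 genes that DESeq2 called lower (0.0128%), and *Mecom* 1 of 16 that it called higher (0.102%). The KO libraries all lay above the control libraries for 1 member, *Mecom* (3.86% of all genes), and all below them for 3 members, *Prdm16*, *Prdm12* and *Prdm8* (3.55%). Without KO F731 the same 3 members had an unadjusted edgeR *P*-value under 0.05 (2.7% of all genes), and DESeq2 called the same 2 (0.206%). *Prdm16* is in these counts by the design of the experiment. A larger absolute log2 fold change than that of *Mecom* was seen in 0.206% of the genes tested, and a larger one than that of *Prdm12* in 1.77%. The median log2 fold change of the 9 members was -0.20, and -0.18 without *Prdm16*, against -0.0058 over all genes tested.

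**Figure D4:**
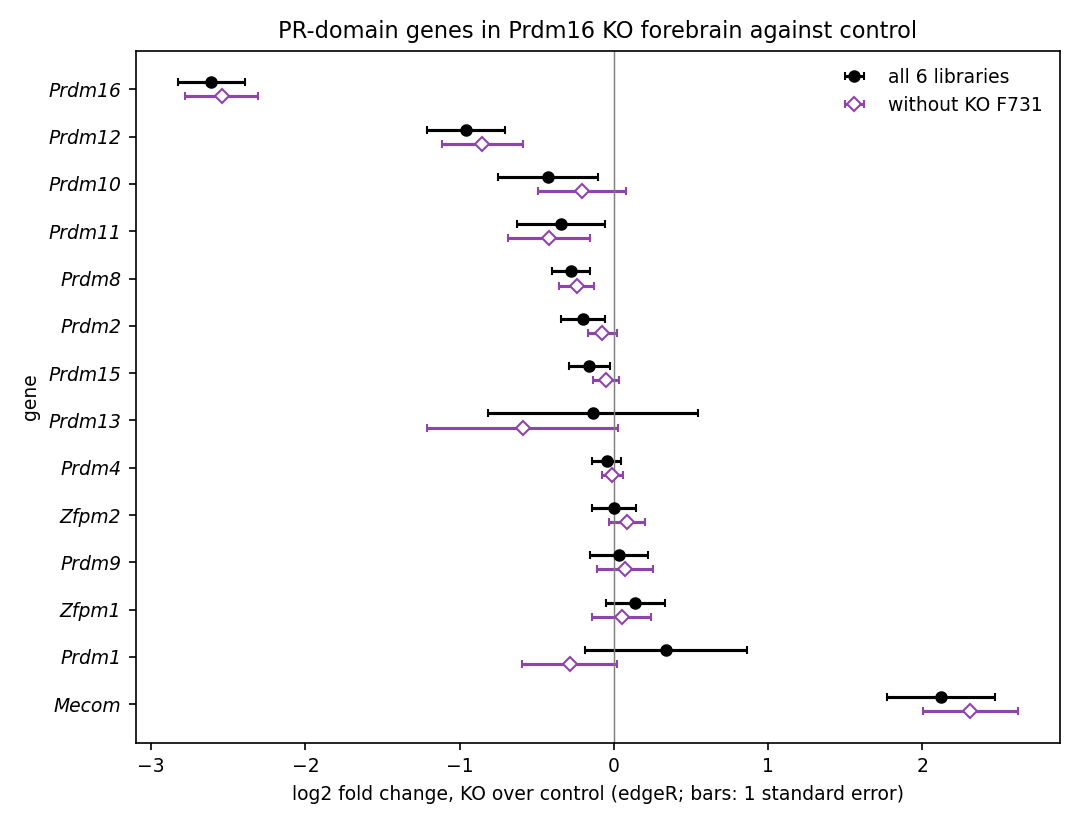
Log2 fold change of KO over control (horizontal axis) for the 14 PR-domain genes with enough counts, from edgeR with all 6 libraries (black) and without KO F731 (purple), with bars of 1 standard error. *Prdm16* at -2.61, *Prdm12* at -0.96 and *Mecom* at 2.12 lie furthest from 0 in both fits, and *Prdm1* is on opposite sides of 0 in the 2 fits. The bars of *Prdm8* and *Prdm11* also leave out 0 in both fits.

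In the other PR-domain genes given here the KO and control libraries overlapped in every case. *Zfpm1* and *Zfpm2*, partners of GATA factors, had log2 fold changes of 0.14 and -0.0009, and the direction of both turned under other settings. *Prdm9*, the factor that places meiotic crossovers, at 0.727 ± 0.0719 CPM per kilobase in KO and 0.715 ± 0.0788 CPM per kilobase in control libraries, overlapped per length with *Mecom* in the KO group, and had a log2 fold change of 0.03 that changed sign between settings. *Prdm11*, at 0.0674 ± 0.0141 CPM per kilobase in KO and 0.0836 ± 0.0148 in control libraries, was the lowest per length of the 14 PR-domain genes tested (log2 fold change -0.34). *Prdm1*, which drives plasma cell fate, had 37, 26 and 39 counts in the KO libraries, against 31, 39 and 36 counts in the control libraries. Its log2 fold change was 0.34 with all libraries and -0.29 without KO F731. None of these 5 genes had an edgeR *P*-value under 0.05, against 1.91% of all genes tested. The smallest edgeR *P*-value was 0.265 (*Prdm11*, adjusted *P* = 0.876).

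*Prdm6* and *Prdm14* did not pass the filter on low counts and were not tested in edgeR with that filter. DESeq2 gave *Prdm6* a log2 fold change of 2.56 (DESeq2 *P*-value 0.0586, adjusted *P* = 0.960), and 0.78 without KO F731. For *Prdm14* it gave 3.09 (DESeq2 *P*-value 0.175) and no adjusted value. *Prdm6*, known from vascular smooth muscle, had 2, 10 and 19 counts in the KO libraries, against 2, 7 and 1 counts in the control libraries. *Prdm14*, a germ cell and pluripotency factor, had 0, 3 and 7 counts in the KO libraries, against 1, 0 and 1 counts in the control libraries. In both genes the highest library was KO F731, the library with counts in the most genes.

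Genes that work with the PRDM proteins were examined next. Of 12 corepressors and chromatin partners of PRDM16 and MECOM (*Ctbp1*, *Ctbp2*, *Ehmt1*, *Ehmt2*, *Hdac1*, *Hdac2*, *Hdac3*, *Kdm1a*, *Suv39h1*, *Ski*, *Skil* and *Smad3*), all 12 were tested, and 0 had an edgeR *P*-value under 0.05 in either direction (1.91% of all genes tested). The 2 with the smallest *P*-values were *Ehmt1*, a histone methyltransferase, with a log2 fold change of -0.21 and a standard error of 0.17 (edgeR *P*-value 0.259), and *Ski*, with -0.14 and 0.11 (edgeR *P*-value 0.262), both with an adjusted *P*-value of 0.876. Both lay nearer to 0 without KO F731, at -0.04 for *Ehmt1* and -0.05 for *Ski*. Without KO F731, *Smad3*, a mediator of TGF-beta signals, had a log2 fold change of 0.26 and an edgeR *P*-value of 0.0162 (adjusted *P* = 1.00), against 0.05 and 0.806 with all libraries. In the fit without that library, 2.7% of all genes had an edgeR *P*-value under 0.05. The median of the list was -0.01, near that of all genes. The list summed to 2351 to 2390 CPM in the KO libraries and 2377 to 2424 CPM in the control libraries.

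Of 14 partners and targets known for the other PRDM proteins, 9 were tested, and 0 had an edgeR *P*-value under 0.05 (1.91% of all genes tested). *Ngfr*, the receptor that PRDM4 binds, had a log2 fold change of -0.28 with a standard error of 0.17 (edgeR *P*-value 0.134), and *Eif3b*, the target of PRDM10, one of 0.28 with a standard error of 0.18 (edgeR *P*-value 0.151), both with an adjusted *P*-value of 0.876. *Eif3b* was at 418 CPM in KO F731, against 267 and 279 CPM in the other KO libraries and 253 to 279 CPM in the control libraries. Within 500 kb of *Prdm16*, 18 of 22 annotated genes in the table were tested, and 0 had an edgeR *P*-value under 0.05 (1.91% of all genes tested). Without KO F731, *Mmel1* had one (0.0294, adjusted *P* = 1.00), where 2.7% of all genes did. Its log2 fold change was -1.02 there, against 0.0069 with all libraries. Within 500 kb of *Mecom*, 8 of 14 were tested, and 0 had an edgeR *P*-value under 0.05 (1.91% of all genes tested). The KO libraries all lay above the control libraries for 2 of the 18 tested neighbours of *Prdm16*, against 3.86% of all genes tested. These were *Ttc34* and *Rer1*, which are named after their values were seen. For *Mecom* this held for none of the tested neighbours.

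The genes whose levels followed those of *Prdm16* and *Mecom* most closely over the 6 libraries were found by Pearson's correlation of log2 CPM, as a description, since the points share 2 groups and the depth and quality of each library. For *Prdm16* these were *Mir2861* (r = 0.99), *Ntrk2* (0.97), *Luzp2* (0.97), *Tnc* (0.97) and *Vit* (0.97), out of 41 genes with r over 0.9. *Mir2861* had only 8 to 44 counts per library. *Ntrk2*, the receptor of brain-derived neurotrophic factor, was at 67.9, 56.6 and 60.8 CPM in KO libraries, against 86.8, 85.3 and 88.4 CPM in control libraries. *Tnc*, a matrix glycoprotein of radial glia, was at 22.7, 19.9 and 19.2 CPM in KO libraries, against 29.5, 32.2 and 28.9 CPM in control libraries. For *Mecom* they were *Pdzrn3* (0.98), *Ptx3* (0.98), *Lbr* (0.98), *Zfp772* (0.97) and *Mgarp* (0.97), out of 44 genes with r over 0.9. *Lbr* and *Zfp772* differed little between the groups, with log2 fold changes of 0.08 and 0.06. *Pdzrn3*, a ubiquitin ligase, was at 29.9, 30.5 and 28.0 CPM in KO libraries, against 12.9, 17.7 and 15.6 CPM in control libraries. *Ptx3*, a secreted pentraxin, was at 114, 116 and 102 CPM in KO libraries, against 35.0, 50.2 and 52.9 CPM in control libraries. These genes were picked for following genes that separate the groups, so their own separation follows from that choice.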

How the data were processed

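Forebrain RNA of 3 KO and 3 control embryos was sequenced on an Illumina HiSeq2500. Reads were trimmed (Trimmomatic), aligned to mm10 (HISAT2) and counted per gene of the UCSC annotation from iGenomes by the authors, and the authors deposited the raw counts. The submitters' processing notes also name DESeq2, limma, Bowtie2 and HOMER 4.10 for the series. How the reads were counted (program, strand, reads with more than 1 match) is not given in the sources used here. Counts of overlapping genes are therefore uncertain. The 6 columns used are named by animal, not by the labels' replicates, and were taken as unnumbered replicates of their group. Another 18 columns of the table were not used here. Other assays of the series were not analysed here.

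After filterByExpr (minimum count 10) had kept 15027 of 24421 genes, TMM scaling and a test followed with edgeR 4.0.16 in R 4.3.3 (glmQLFit with robust shrinkage and without the legacy method, then glmQLFTest), with Benjamini-Hochberg adjustment over all genes kept and a threshold of 0.05. Standard errors follow from each log2 fold change and the square root of its F statistic, and 95% intervals are 1.96 of them to each side. These intervals are approximate and narrower than the F test implies with so few libraries. For *Prdm8* such an interval would be -0.515 to -0.041, which leaves out 0, at an edgeR *P*-value of 0.0524. The alternatives were DESeq2 1.42.0, limma-voom (3.58.1) with and without sample quality weights, other settings of shrinkage, scaling, filter and gene set in edgeR, and leaving out each library in edgeR and in DESeq2, 24 fits in all. Scripts were tested on simulated counts. Of the lists, 1 PR-domain gene and the separate level of 1 marker are not reported here. No pair of libraries held identical counts or agreed within sampling noise.

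Lengths, positions and overlaps come from GENCODE vM21 on GRCm38, with lengths joined over all exons, and promoter windows from RefSeq on GRCm38.p6. Genes were named by a rule that took all members and the other PR-domain genes, the members of the 2 partner lists and of the neighbours with an edgeR *P*-value under 0.05 or, in the partner lists, the 2 smallest, and the 5 genes closest to *Prdm16* and to *Mecom* in Pearson's correlation of log2 CPM (prior count 2). Marker lists also covered meninges and mesenchyme, in which the summed levels of the 2 groups overlapped (45.8 to 121 CPM in KO and 48.0 to 100 CPM in control libraries). The members, lists and rule were chosen with earlier results of these data known. *Smad3*, *Mmel1*, *Ttc34* and *Rer1* were named outside the rule, after their values were seen.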

Additional observations from a re-analysis of the deposited data

How the results depend on the processing

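The direction of *Prdm16*, *Mecom*, *Prdm2*, *Prdm4*, *Prdm8*, *Prdm10*, *Prdm12*, *Prdm15* and *Prdm11* was the same in all 23 alternatives, but the side of the threshold was not. Genes called over the table numbered 18 in DESeq2, 12 in limma-voom with sample quality weights and 1 in edgeR with no filter, and 0 in the other edgeR settings and plain limma-voom. When 1 library was left out, edgeR called 0 and DESeq2 4 (without KO F727) to 33 (without KO F731). Members called numbered 2 in DESeq2 and with quality weights, 1 with no filter, and 2 to 3 in DESeq2 without 1 library, against 0 in edgeR. *Prdm16* passed the threshold in DESeq2 (log2 fold change -2.62), with quality weights (-2.49) and with no filter (-2.63, adjusted *P* = 0.00564 in edgeR). Without 1 library it was at -2.82 to -2.43 in edgeR and -2.84 to -2.44 in DESeq2. *Mecom* passed it in DESeq2 (2.11) and with quality weights (2.20), and was at 1.84 to 2.40 in edgeR and 1.83 to 2.38 in DESeq2 without 1 library. Its adjusted *P*-value ranged over all alternatives from 1.27e-09 to 1.00, and that of *Prdm16* from 1.65e-28 to 0.370.

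*Prdm13*, *Prdm1*, *Prdm9*, *Zfpm1* and *Zfpm2* turned direction in some settings. With quality weights *Prdm1* was at -0.42, *Zfpm1* at -0.0038 and *Zfpm2* at 0.052, and with total counts *Prdm9* at -0.040. *Zfpm2* was at 0.0055 in limma-voom, 0.0031 with RLE scaling, 0.023 with upper-quartile scaling, 0.016 with at least 1 CPM in 3 libraries and 0.0040 without histone and structural RNA genes. Without 1 library, log2 fold changes in edgeR and in DESeq2 ran from -0.59 to 0.56 and -0.69 to 0.74 for *Prdm13*, -0.29 to 0.76 and -0.29 to 0.83 for *Prdm1*, -0.063 to 0.11 and -0.088 to 0.094 for *Prdm9*, -0.0071 to 0.25 and -0.016 to 0.24 for *Zfpm1*, and -0.14 to 0.086 and -0.17 to 0.083 for *Zfpm2*. The cause was not tested. *Prdm13* was not tested at 1 CPM in 3 libraries, which removes it. No paired analysis was possible because the columns of the count table carry animal numbers and not the replicate numbers of the labels. Depth limits *Prdm13*, *Prdm6* and *Prdm14* most, with at most 30 counts in any library.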
